A study of Rattus norvegicus with 18 samples.

Results

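Of 16364 H3K4me3 peaks measured in primary rat Schwann cells, 1500 had more reads in all 3 libraries collected 30 min after washout of a cAMP analogue than in any of the 6 control and 3.5 h libraries. A peak could enter this set if it lay on chromosomes 1 to 20 of the rat genome (build Rnor_6.0) and had a mean of 50 or more reads over the 9 H3K4me3 ChIP libraries, which 15492 peaks did. The comparison used CPM, which is the reads of a peak per 1000000 reads in peaks of the same library. The rule was met where the lowest of the 3 30 min CPM values lay above the highest of the other 6. The 1500 peaks were thus selected on their CPM at 30 min against control and against 3.5 h, and are called 30 min-high peaks here.

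H3K4me3 (trimethylated lysine 4 of histone H3) marks the promoters of active and poised genes. It is deposited by SET1 and MLL (KMT2) methyltransferase complexes and removed by KDM5 demethylases, which need Fe(II) as a cofactor. Schwann cells ensheathe the axons of peripheral nerves, and cAMP is one of the signals that drive their differentiation in culture.

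The cells were isolated from the sciatic nerves of adult Fisher rats and expanded in culture, and were either left untreated (control) or given the membrane-permeable analogue 8-CPT-cAMP for 30 min, washed, and collected 30 min or 3 h 30 min after the washout (here 30 min and 3.5 h). The dose is stated both as 100 μM and as 50 μM in the sample descriptions. Each condition had 3 H3K4me3 ChIP libraries and 3 libraries of genomic input, 18 in all. Nothing states that the replicates were separate cultures, so the p-values measure the spread between these libraries, which may be technical. The identity of the cells was not checked against marker genes, because gene positions in this genome build, and with them the genes and sequences at the peaks, were not analysed here.

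The ChIP libraries held between 13762905 and 17160987 reads in peaks, and the median 30 min-high peak had 406 reads in a 30 min library, a counting error of 4.96%. The input libraries held between 27344 and 835518 reads in the same regions. Because CPM is a share of each library's own reads in peaks, a change that was equal at every peak cannot be seen in it, and every difference below is relative to the other peaks.

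The 30 min-high peaks were 9.68% of the peaks that could enter. The same rule with the conditions exchanged found 571 peaks (3.69%) at which all 3 control libraries were the highest and 2405 peaks (15.5%) at which all 3 3.5 h libraries were the highest. With the order turned round, all 3 30 min libraries were the lowest at 1639 peaks (10.6%), the control libraries at 941 (6.07%) and the 3.5 h libraries at 2670 (17.2%). Peaks that separated 30 min from the rest were therefore fewer than those that separated 3.5 h, and more than those that separated control.

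The separation was narrow at most of the 1500 peaks. The margin, which is the lowest 30 min CPM divided by the highest CPM of the other 6 libraries, had a median of 1.035 and quartiles of 1.014 and 1.079. It was above 1.1 at 283 peaks and above 1.5 at 5. The median CPM at 30 min was 1.146 times that in control cells and 1.317 times that at 3.5 h, on the medians of the peak-wise folds from edgeR. On the log2 scale the 30 min minus control difference ran from 0.01 to 1.27 among the 30 min-high peaks with a median of 0.20, beside a median of 0.02 over all peaks. It was over 1.5-fold at 38 peaks and over 2-fold at 2, while 519 peaks were under 1.1-fold. These values chose the peaks and describe them only.

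In control cells the 1500 peaks together took 5.91%, 5.89% and 5.91% of the reads in peaks in replicates 1, 2 and 3. At 30 min they took 6.67%, 6.41% and 6.40%, and at 3.5 h 5.64%, 5.24% and 4.96%. The means were 5.90% ± 0.00780 in control, 6.49% ± 0.158 at 30 min and 5.28% ± 0.340 at 3.5 h (SD, n = 3). The spread was smallest in control and largest at 3.5 h, where replicate 1 lay nearest to control and replicate 3 farthest from it.

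The separation depended on counting only the reads in peaks. Reads that fell outside every peak were 17%, 20.3% and 17.7% of the counted reads in control, 24.9%, 20.9% and 24.6% at 30 min, and 20.9%, 12.8% and 11.5% at 3.5 h. As a share of all counted reads, the 1500 peaks held 4.90%, 4.70% and 4.86% in control, 5.01%, 5.07% and 4.82% at 30 min, and 4.46%, 4.57% and 4.39% at 3.5 h. On this scale 30 min replicate 3 lay within the control range, and the 3.5 h libraries still lay below all others. With all counted reads as the library size, 441 of the 1500 peaks (29.4%) still met the rule. The part of the reads outside peaks in the separation was not tested.

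**Figure D1:**
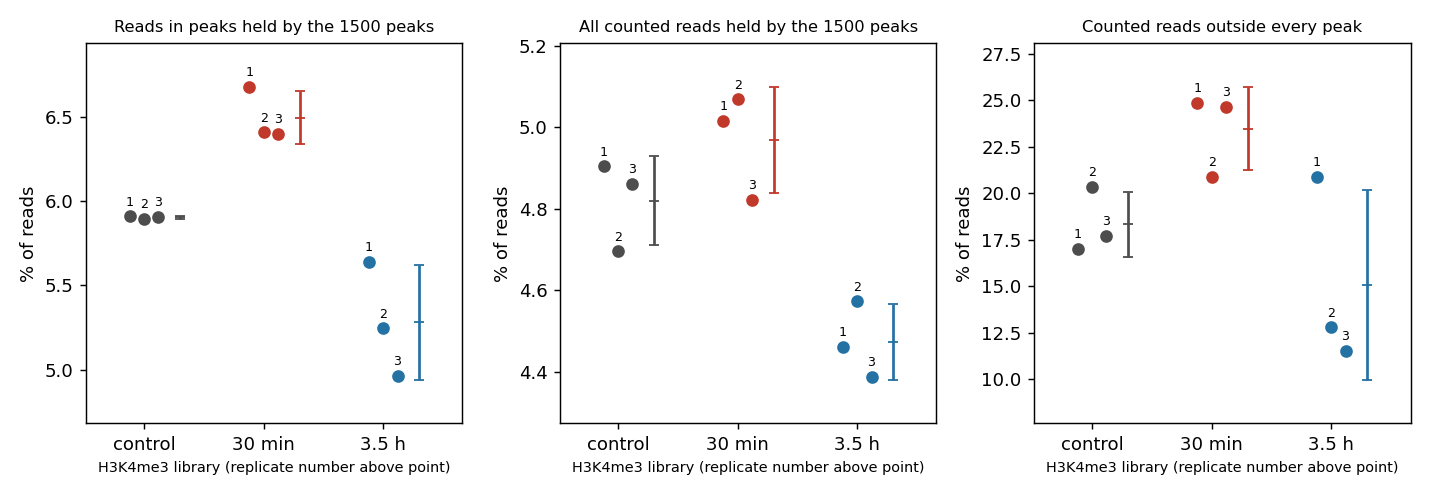
Share of reads held by the 1500 30 min-high peaks and share of reads outside every peak, in percent, for each of the 9 H3K4me3 libraries (points, with replicate numbers; bars, mean and SD of 3; the axes do not start at 0). The 30 min libraries hold 6.40% to 6.67% of the reads in peaks, above every control library, but on all counted reads 30 min replicate 3 (4.82%) lies within the control range of 4.70% to 4.90%.

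A single library often set the height of the 30 min values. The highest 30 min CPM was in replicate 1 at 971 of the 1500 peaks (64.7%), beside 32.5% of all peaks that could enter. At 3.5 h the highest CPM was in replicate 1 at 1204 peaks (80.3%, beside 38.7%) and the lowest in replicate 3 at 1194 (79.6%, beside 41.2%). The order of the replicates in the share of reads outside peaks matched their order in the share held by the 1500 peaks at 3.5 h, but not in control, where replicate 2 had the most reads outside peaks and the smallest share in these peaks, nor at 30 min.

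The 8 peaks with the widest margin were low, with mean levels between 2.62 and 11.9 CPM per kb. At Peak_5727 (chr4:62104926-62105808, 883 bp) the control libraries had 3.85, 4.09 and 3.94 CPM, the 30 min libraries 8.39, 7.75 and 7.76, and the 3.5 h libraries 3.68, 3.26 and 1.55. Every 30 min library stood near 8 CPM while no other passed 4.09, a margin of 1.90, and the 3.5 h value was low mainly in replicate 3. Peak_12742 (chr1:24188439-24189646, 1208 bp) had control values of 2.69, 3.39 and 4.35 CPM, 9.27, 8.27 and 7.70 at 30 min, and 3.48, 2.22 and 1.19 at 3.5 h. Its margin was 1.77, with control and 3.5 h overlapping. These were the 2 peaks over 2-fold against control.

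Of the same 8 peaks, 4 were called at 3.5 h against control, and all 4 were lower. Over all peaks 17.8% were called lower, and of the 1500 peaks 44.5%. The rule kept out most peaks that were higher at 3.5 h, so this direction and these p-values are a description only. Peak_9682 (chr16:26791063-26792582), at 3.78, 3.60 and 3.24 CPM in control and 8.27, 6.84 and 5.69 at 30 min, had 2.39, 0.762 and 1.19 at 3.5 h, so that all 3 conditions were separate. Its log2 difference between 3.5 h and control was -1.28 ± 0.31 (SE; edgeR adjusted p = 0.00864). The other called peaks were Peak_11080 (chr2:256915126-256915773; -1.15, edgeR adjusted p = 0.00804), Peak_15577 (chr10:109517523-109518544; -0.85, 0.0326) and Peak_11216 (chr1:143037518-143038756; -0.66, 0.024). The call of Peak_11216 was lost without control replicate 1 or 2 or 3.5 h replicate 3 (edgeR adjusted p from 0.0507 to 0.0853). That of Peak_15577 was lost without any one of the control libraries or of 3.5 h replicates 2 and 3, with only the compared conditions, and with DESeq2 (adjusted p from 0.0567 to 0.116). Peak_16223 (chr13:73066774-73067440) had a control mean of 2.91 ± 0.212 CPM, 5.24 ± 0.457 at 30 min and 1.83 ± 0.847 at 3.5 h (SD, n = 3), without a call.

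**Figure D2:**
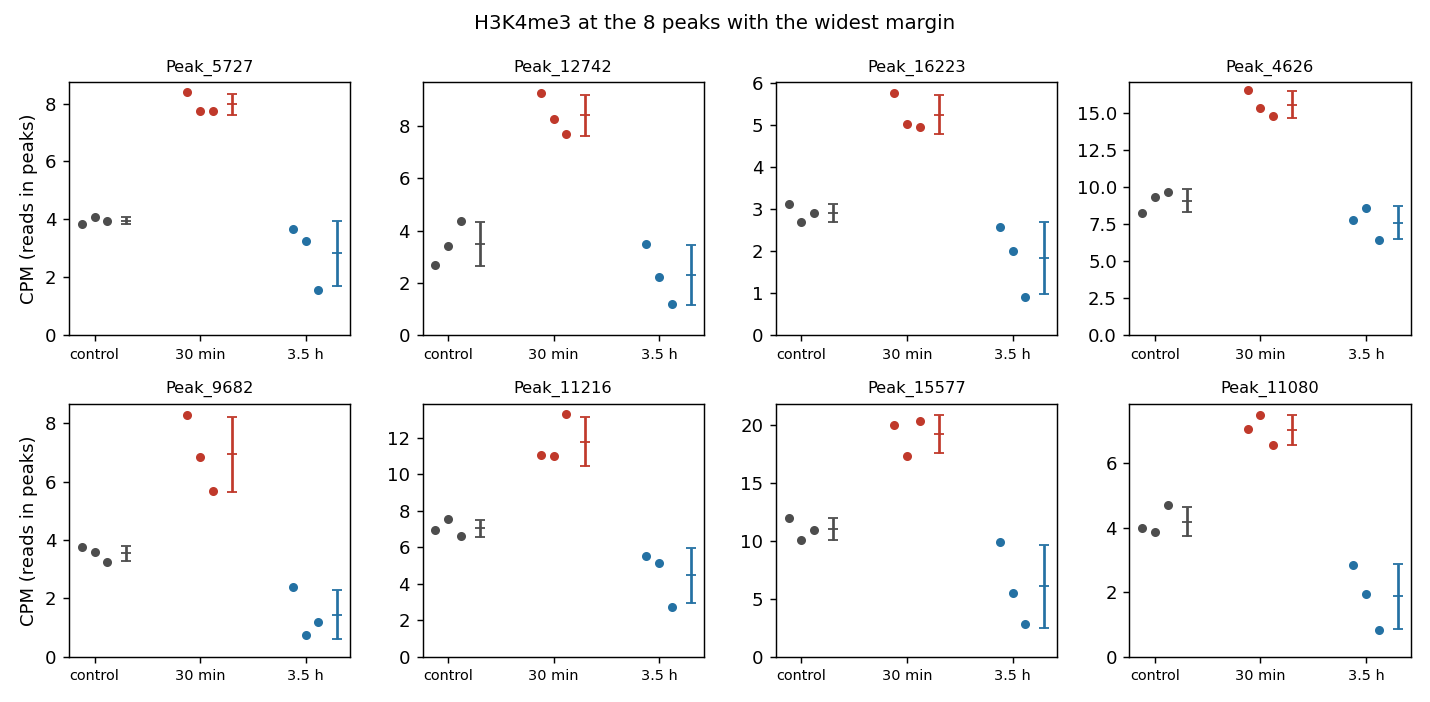
H3K4me3 in CPM (reads of the peak per 1000000 reads in peaks) at the 8 peaks with the widest margin, with 1 point for each library and the mean and SD of 3 beside it; each panel has its own axis from 0. The 30 min points lie above all others by the rule, and the lowest 3.5 h point is replicate 3 in 7 of the 8 panels.

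Of these 8 peaks, 5 lay within 1 kb of another peak with a higher level per kb. Peak_4626 (chr2:5580937-5581980) had control values of 8.21, 9.35 and 9.67 CPM, 16.5, 15.3 and 14.8 at 30 min, and 7.74, 8.59 and 6.39 at 3.5 h. It ended 84 bp before Peak_681, a 3069 bp peak with a control level of 143 ± 0.948 CPM (SD, n = 3), 146 ± 1.06 at 30 min and 148 ± 1.83 at 3.5 h, which was called in neither comparison with control. Peak_11216 began 86 bp after Peak_11215, a 3351 bp peak that had 201 ± 3.12, 193 ± 4.60 and 198 ± 7.80 CPM (SD, n = 3) in the order control, 30 min and 3.5 h. The 30 min minus control log2 differences of these tall peaks, 0.03 for Peak_681 and -0.06 for Peak_11215, did not pass the test (edgeR adjusted p = 0.512 and 0.233). The neighbours of the other 3 were not alike. Peak_5726, 161 bp from Peak_5727, had a 30 min minus control difference of 0.33 (edgeR adjusted p = 0.0573) and was called higher than control at 3.5 h (0.45, 0.00102), while Peak_8378, beside Peak_15577, was called lower at 3.5 h (-0.28, 0.00108). Peak_1736, beside Peak_12742, was called in neither comparison with control (0.02 at 30 min and -0.03 at 3.5 h).

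Over the whole set, 245 of the 1500 peaks (16.3%) had another peak within 1 kb, beside 11.5% of the peaks that could enter. That neighbour had the higher level per kb for 167 of the 245 peaks (68.2%), beside 48.6% for all peaks with so close a neighbour. The 245 were themselves low, with a median of 12.8 CPM per kb beside 26.4. The part of this low level in the share was not tested. The median log2 difference between 30 min and control was 0.23 in the 245 peaks, which the rule fixed as positive, and 0.04 in their neighbours, beside 0.02 in the neighbours of all peaks with so close a neighbour. The neighbour was itself a 30 min-high peak for 57 of the 245 peaks (23.3%, beside 13.2%). It had its lowest values in all 30 min libraries for 19 (7.76%, beside 9.91%). Where 30 min-high peaks were nearest to each other, each was counted. A region that continues across the gap can be divided into 2 peaks by the peak caller, and such pairs are not independent.

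At 3.5 h many of the 1500 peaks had less H3K4me3 than in control cells, which the rule in part fixed. A peak whose 3.5 h level lay above control could enter only if its 30 min level was higher still, while a peak whose 3.5 h level lay below control had to clear the control level alone. Of the 1500 peaks, edgeR's quasi-likelihood test called 667 (44.5%) lower at 3.5 h than in control and 11 (0.733%) higher at an adjusted p below 0.05, and called 822 neither way. Over all 16364 peaks, 17.8% were called lower and 13.7% higher.

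The same counts were made without the 3.5 h condition of the rule, a comparison chosen after the values were seen. At 2945 peaks all 30 min libraries were above all control libraries, whatever the 3.5 h values. Of these, 667 (22.6%) were called lower and 582 (19.8%) higher at 3.5 h than in control. These peaks were still chosen against the control libraries that the contrast uses, so their shares are a description too. All of the 667 were among the 1500, and 571 of the 582 were among the 1445 peaks that the 3.5 h condition kept out. The direction at 3.5 h among the 30 min-high peaks is therefore given as a description, and so are the p-values of single peaks above and below.

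The median log2 difference between 3.5 h and control was -0.19 at the 1500 peaks with quartiles of -0.42 and -0.07, beside 0.00, -0.10 and 0.10 over all peaks. All 3.5 h libraries were below all control libraries at 764 of the 1500 (50.9%), beside 22.4% of the peaks that could enter, and above them at 45 (3%), beside 26.3%. With all counted reads as the library size, 470 of the 1500 were called lower and 16 higher. With only the control and 3.5 h libraries fitted, 576 were called lower and 8 higher. Without 3.5 h replicate 2 the number called lower was 418, and without control replicate 1 it was 435. The 95% interval of the difference lay within 0.2 of 0 on the log2 scale, a band chosen after the values were seen, at 312 of the 1500 peaks (20.8%) and at 47.6% of all peaks.

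**Figure D3:**
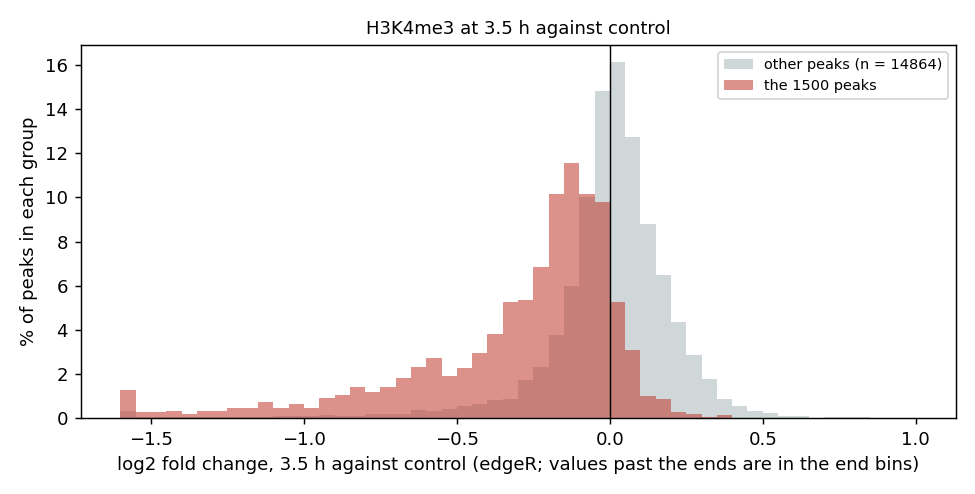
Log2 fold change of H3K4me3 at 3.5 h against control from edgeR, as the percent of peaks in each bin, for the 1500 30 min-high peaks (red) and the 14864 other peaks (grey). The 30 min-high peaks centre on -0.19 with a long left side, and all peaks on 0.00; the rule kept out most peaks with a positive value.

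The 667 peaks called lower at 3.5 h had a median width of 1646 bp and a median of 29.0 CPM in control cells, against 34.3 at 30 min and 21.4 at 3.5 h. The 822 without a call were narrower, with a median of 1222 bp, and had 18.9, 21.5 and 17.4 CPM. Their mean count per library had a median of 290.5 reads, beside 439 for the 667, so an equal difference was harder to call. The 11 called higher had 65.1, 84.0 and 72.3 CPM. The lack of a call at the 822 does not show that their level had returned.

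The 3 steepest called losses at 3.5 h, picked by their size, were at low, narrow peaks with few reads. In replicates 1, 2 and 3 at 3.5 h, Peak_10971 had 10, 14 and 11 reads and Peak_9944 had 13, 9 and 16. Peak_3207 had 28, 26 and 20. Their counting error at 3.5 h was therefore far larger than that given for the median 30 min-high peak. Peak_10971 (chr1:137209208-137209889, 682 bp) had control values of 5.01, 4.29 and 4.07 CPM, 6.70, 6.19 and 5.57 at 30 min, and 0.645, 0.970 and 0.773 at 3.5 h. All 3.5 h libraries were below 1 CPM, and the log2 difference from control was -2.49 ± 0.22 (SE; edgeR adjusted p = 3.12e-05). Peak_9944 (chr17:43932027-43932557) went from control values of 4.21, 3.19 and 3.94 CPM to 0.839, 0.624 and 1.12 at 3.5 h, with 6.76, 5.21 and 4.51 at 30 min (-2.13, edgeR adjusted p = 0.000292). Peak_3207 (chr10:103826803-103827506) had control values of 8.57, 5.06 and 8.15 CPM, 13.2, 10.4 and 8.70 at 30 min, and 1.81, 1.80 and 1.41 at 3.5 h (-2.12, edgeR adjusted p = 0.000244). Each of these 3 lay within 1 kb of another peak. Of those neighbours, Peak_9943 (0.75, edgeR adjusted p = 0.0228) and Peak_15522 (0.20, 0.011) were called higher than control at 3.5 h, and Peak_4943, itself a 30 min-high peak, was not called (-0.08, 0.646).

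The 11 peaks called higher than control at 3.5 h were above it at both times. Peak_10926 (chr1:134954402-134955114) had control values of 6.18, 7.06 and 8.22 CPM, 11, 10.2 and 10.9 at 30 min, and 9.36, 9.84 and 9.13 at 3.5 h, so the 3 conditions did not overlap. Its log2 difference at 3.5 h was 0.39 ± 0.12 (SE; edgeR adjusted p = 0.0237). Peak_12362 (chr5:2071685-2072251; 0.30, edgeR adjusted p = 0.0473) and Peak_13930 (chr8:33791461-33793017; 0.28, 0.0326) followed. All 3 calls were lost with DESeq2 and without control replicate 1, control replicate 2 or 3.5 h replicate 2, and those of Peak_12362 and Peak_13930 also without 3.5 h replicate 3 (adjusted p from 0.0553 to 0.186 over these settings). Peak_12362 lost its call without control replicate 3 or 30 min replicate 3 as well (0.0588 and 0.0519).

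Against control at 30 min, edgeR called 52 of the 1500 peaks higher, beside 0.532% of all peaks (87). Against 3.5 h, 1326 of the 1500 were called higher, beside 23.3% of all peaks. The rule used both contrasts, so these counts show only how many of the separated peaks also passed the test. At 48 peaks the 30 min level was called higher than both other conditions, and 22 of these also met the rule with all counted reads as the library size. The number called against control was unstable: it was 582 when only the control and 30 min libraries were fitted, 396 without 3.5 h replicate 1 and 320 without 3.5 h replicate 3, and between 8 and 27 without any other single library.

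A 30 min-high peak was most often a low peak. The median level was 16.2 CPM per kb (quartiles 8.30 and 28.6), the mean over the 9 libraries, beside 32.7 (16.6 and 44.9) for the peaks that could enter. Of the decile of peaks with the lowest level, between 2.62 and 8.34 CPM per kb, 24.5% were 30 min-high, and of the decile with the highest level, between 54.9 and 90.1, 0.323% were. The share was lower at each decile than at the one before. The peaks with their lowest values at 30 min were distributed the other way, from 0.323% of the lowest decile to 40.5% of the highest, with a median of 51.0 CPM per kb. The level includes the 30 min values, which raises it for a 30 min-high peak.

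**Figure D4:**
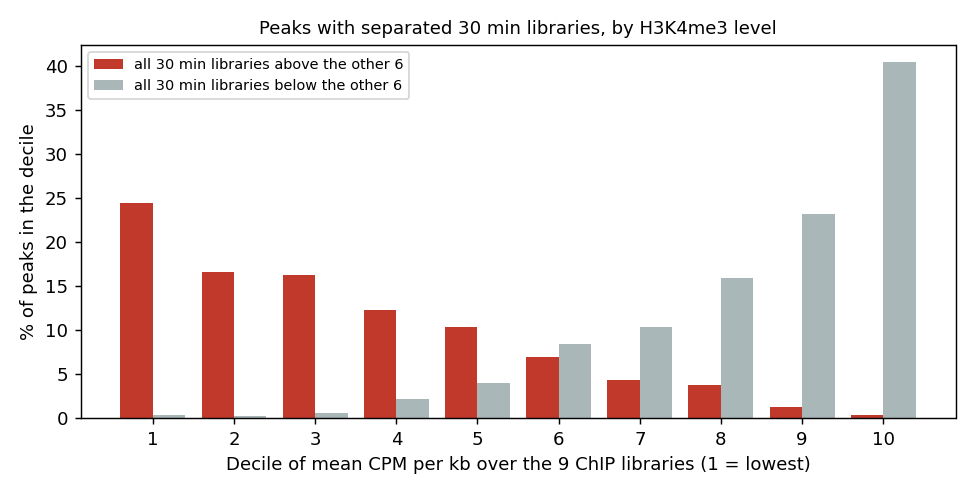
Percent of the peaks in each decile of mean H3K4me3 level (CPM per kb over the 9 ChIP libraries, 1 lowest) at which all 30 min libraries were above (red) or below (grey) the other 6. The red bars drop from 24.5% to 0.323% and the grey bars reach 40.5% in the highest decile.

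The 30 min-high peaks had a median width of 1384 bp (quartiles 930 and 2117), beside 1572 bp (1082 and 2184). By width class they were 13.4% of peaks under 700 bp (159 of 1189), 9.28% of those from 700 to below 2500 bp (1081 of 11648), 9.16% from 2500 to below 4000 bp (194 of 2117) and 12.3% of those of 4000 bp or more (66 of 538). Both the narrowest and the widest class thus held a larger share than the middle. The median level was below that of the peaks that could enter in each class, by 1.12 on the log2 scale from 700 to below 2500 bp and by smaller amounts in the others.

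No 30 min-high peak was called in genomic input. Of the 282 30 min-high peaks with enough input reads to test, edgeR called none in any of the 3 contrasts, beside 0% of the 3320 peaks tested, and for 30 min against control 1 of them, the only peak among the 3320, had an unadjusted p below 0.05. That is far fewer low p-values than a test gives where nothing differs, so this test could call little, and no conclusion is drawn from it. The input libraries were also uneven. Control and 30 min replicate 3 held 675044 and 835518 reads in peaks (2.95% and 3.55% of counted reads). The other control and 30 min input libraries held between 27344 and 88505 (1.05% to 1.37%). A difference of the size seen in ChIP may not have been detectable. The ratio of ChIP to input had a median of 19.7 at the 30 min-high peaks and 32.8 at the peaks that could enter.

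The tallest 30 min-high peak, by mean CPM per kb, had an intermediate level at 3.5 h on the scale of reads in peaks. Peak_10142 (chr18:27655513-27660421, 4909 bp, 57.7 CPM per kb) had control values of 251, 251 and 253 CPM, 310, 311 and 315 at 30 min, and 276, 290 and 289 at 3.5 h. The conditions were separate, and 3.5 h stayed above control by 0.17 ± 0.02 (log2, SE; edgeR adjusted p = 0.000408). The next tallest, Peak_6446 (chr6:41038420-41041577), had control values of 171, 175 and 175 CPM, 191, 189 and 184 at 30 min, and 184, 177 and 183 at 3.5 h. Its lowest 30 min and highest 3.5 h values nearly met. Of the other 4 among the 6 tallest, Peak_13796 (chr1:220825980-220828066) was at 115 CPM in control and 126 at 30 min, a log2 difference of 0.14, and the differences of Peak_929, Peak_10709 and Peak_13548 lay between 0.01 and 0.05.

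Of the 3 widest, Peak_13820 (chr7:142910980-142920047, 9068 bp) stood apart. It had control values of 219, 215 and 216 CPM, 276, 274 and 287 at 30 min, and 230, 220 and 195 at 3.5 h. The 30 min libraries cleared all others by a factor of 1.19, while 3.5 h overlapped control (-0.02, edgeR adjusted p = 0.802). Peak_15773 (chr11:83538731-83546903) was at 220, 221 and 219 CPM in control and 222, 223 and 225 at 30 min. Peak_3152 (chr10:88490461-88497903) had 348, 345 and 336 CPM at 30 min against 333, 335 and 330 in control, and the log2 difference at 3.5 h was -0.20 (edgeR adjusted p = 0.0086, and 0.064 with all counted reads).

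Of the 3 narrowest peaks, 2 were called lower at 3.5 h than in control. Peak_412 (chr17:59731620-59732007, 388 bp) had control values of 6.83, 6.37 and 6.35 CPM, 8.16, 7.30 and 7.26 at 30 min, and 4, 1.80 and 0.632 at 3.5 h (-1.58, edgeR adjusted p = 0.00447). Peak_16100 (chr12:50232624-50232972, 349 bp) had 2.83, 3.53 and 3.94 CPM in the control libraries, 5.59, 4.04 and 4.19 at 30 min, and 2.13, 2.15 and 1.90 at 3.5 h (-0.75, edgeR adjusted p = 0.0171). In both, the 3 conditions were separate. The call of Peak_16100 was lost without control replicate 2 or 3 and with loess scaling (adjusted p from 0.0521 to 0.0702). Peak_15931 (chr12:21761355-21761705, 351 bp) had control values of 2.98, 2.56 and 2.90 CPM and 3.87, 3.33 and 3.65 at 3.5 h, without a call (0.35, edgeR adjusted p = 0.109).

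The values at the edge of the rule were close on both sides. Peak_929 (chr2:238801448-238804032) entered with a lowest 30 min CPM of 149.18 against 149.17 in control replicate 1. Peak_6122 (chr5:126163724-126167568) entered with 162.46 against 162.45, and Peak_6331 (chr5:170728871-170732362) with 54.202 against 54.195 in 3.5 h replicate 1. Just outside was Peak_14421 (chr9:53525678-53527317), with 40.110 CPM at 30 min against 40.111 in control. Peak_10658 (chr2:47096136-47097453) had 39.153 against 39.154 at 3.5 h, and Peak_602 (chr19:26083559-26086704) had 144.74 in both its lowest 30 min and its highest control library. Differences of this size are far below the counting error, so the rule does not tell such peaks apart.

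The 1500 peaks lay on all 20 chromosomes, from 7.66% of the peaks that could enter on chromosome 14 to 14.1% (78 of 554) on chromosome 17. A peak was within 5 kb for 457 of them (30.5%), beside 23.2%. The nearest peak that could enter was another 30 min-high peak for 225 of the 1500 (15%), and for 9.71% of the other 13992. In genome order, 1149 stood singly, 131 pairs, 21 runs of 3, 5 runs of 4 and 1 run of 6 held the rest.

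The run of 6 lay on chromosome 17 (chr17:45632390-45645675) within 13286 bp. From left to right, the mean 30 min levels were 7.87, 21.5, 8.57, 6.47, 21.2 and 16.8 CPM, against 5.57, 19.6, 5.54, 4.79, 16.3 and 12.2 in control and 2.29, 16.3, 5.73, 2.79, 5.65 and 6.90 at 3.5 h. At Peak_9970 the control libraries had 16.6, 16.5 and 15.7 CPM, the 30 min libraries 22.9, 20.5 and 20.2, and the 3.5 h libraries 8.52, 4.92 and 3.51. The 3.5 h level was called lower than control at 4 of the 6, namely Peak_9968 (-1.28, edgeR adjusted p = 0.00174), Peak_9969 (-0.78, 0.00755), Peak_9970 (-1.52, 0.000351) and Peak_403 (-0.82, 0.0155). Of the 1500 peaks 44.5% were called lower, and of all peaks 17.8%, and the rule favoured this direction. The 6 peaks lay 177 to 455 bp from their nearest peak. They may be parts of divided regions and are not 6 independent cases. The call of Peak_403 was lost without control replicate 1 or 3.5 h replicate 2 (edgeR adjusted p = 0.0627 and 0.0618). The differences at Peak_402 (-0.28, 0.0643) and Peak_4218 (0.04, 0.864) did not pass. Neighbours in the run thus shared the 30 min order by the rule, and had unlike levels at 3.5 h.

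**Figure D5:**
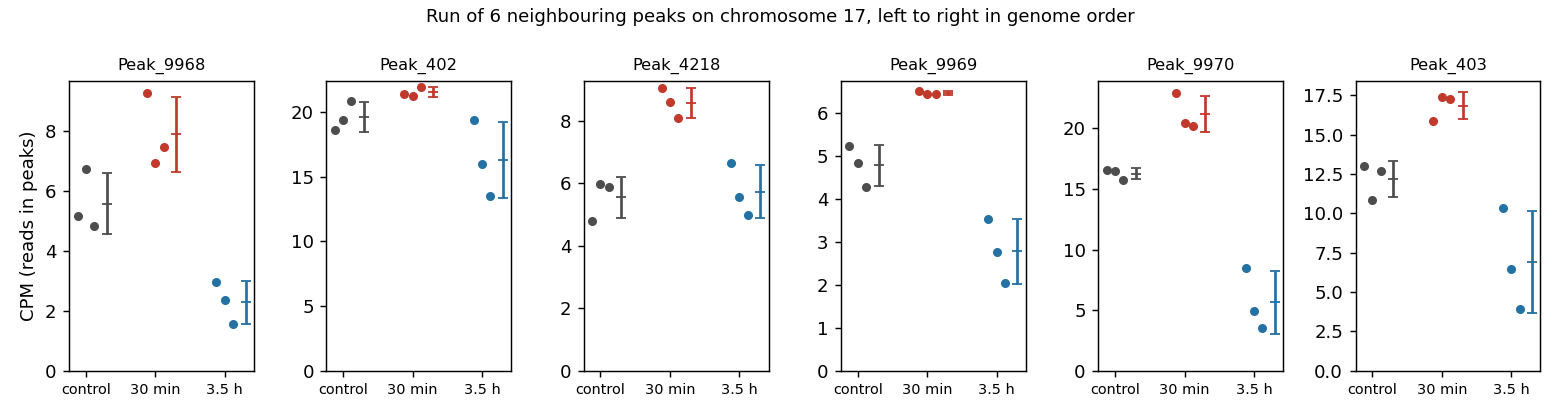
H3K4me3 in CPM (reads of the peak per 1000000 reads in peaks) at the 6 neighbouring 30 min-high peaks on chromosome 17, with 1 point for each library and the mean and SD of 3 beside it; panels follow genome order and each axis starts at 0. At 3.5 h the levels lie below every control library except at Peak_402 and Peak_4218.

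A core of 281 of the 1500 peaks (18.7%) met the rule under each of 5 other scalings, namely all counted reads, TMM factors, DESeq2 size factors, loess offsets and subtraction of the expected background. They were low peaks with a median of 9.58 CPM per kb, beside 19.2 for the 1219 others, and had a median margin of 1.145, beside 1.026. Their median CPM was 11.5 in control, 14.8 at 30 min and 8.53 at 3.5 h. Of the 281, 128 (45.6%) were called lower at 3.5 h than in control, beside 44.2% (539) of the 1219 others and 17.8% of all peaks. The rule favoured this direction in the core and in the others, so these shares are a description only.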

How the data were processed

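H3K4me3 ChIP and genomic input were sequenced from control, 30 min and 3.5 h Schwann cells, 3 libraries of each. The authors trimmed reads with Trim Galore, aligned them to Rnor_6.0 with BWA, discarded duplicates and reads that mapped to several places, used MACS2 to call peaks, merged them between treatments and counted reads per peak with HTSeq. The deposited values are raw read counts per peak, without normalization, and the combined table held the same values as the single-library tables. Rows for reads outside peaks were kept out of library sizes and tests. They held between 1855309 and 5678783 reads per ChIP library.

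The 1500 peaks were chosen on these counts, and the peaks, lists and alternatives were chosen with earlier results of these data known. Contrasts were fitted over all 16364 peaks and the 9 ChIP libraries with edgeR 4.0.16 (R 4.3.3) by the quasi-likelihood test, with TMM factors, filterByExpr and condition as the only term. P-values were adjusted by the Benjamini-Hochberg method and called below 0.05. Input was fitted in the same way. The 3.5 h against control contrast had been planned as independent of the rule, and was found not to be, so it is reported as a description. The fit was tested on simulated counts for 3.5 h against control over 16364 peaks. Of 200 peaks changed by 0.5 on the log2 scale, 191 were recovered, with 14 false calls. The simulation gave every peak and library the common spread of the fit (biological coefficient of variation of 1.96%). The real 3.5 h libraries varied more than the control libraries, so the simulation does not vouch for the 3.5 h calls. Alternatives included DESeq2 1.42.0, other library sizes, filters, left-out libraries and a replicate block. Named peaks were the 8 with the widest margin, the 6 tallest, the 3 widest and 3 narrowest, the 3 largest rises and 3 largest falls called at 3.5 h, and 3 on each side of the rule's edge. The runs and close neighbours were chosen after their values were seen. Control replicates 1 and 2 differed by less than sampling noise over the peaks (chi-square of 0.664 per peak, where 1 is expected from counting), but held 2817628 and 3683583 reads outside peaks and were kept as separate libraries. Between 3.5 h libraries the chi-square was 1.63 to 4.20 per peak, and 3.19 to 10.8 at the 1500 peaks. The spread that the fit shared between conditions may therefore be too small for 3.5 h, which limits the p-values of 3.5 h against control. Counting errors cover counting only.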

Additional observations from a re-analysis of the deposited data

Results flagged for a closer look

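Reads outside every peak, which enter no comparison of the peaks, were 23.5% of the counted reads at 30 min (mean of 3 libraries), beside 18.3% in control and 15.1% at 3.5 h. They are singled out because they lie outside the main measurement and were above the level in the control libraries, all 3 of which were below the lowest 30 min library (20.9%). The condition means had the same order in the share of peak reads held by the 30 min-high peaks (5.90% in control, 6.49% at 30 min and 5.28% at 3.5 h), and the part of the reads outside peaks in that order was not tested.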

How the results depend on the processing

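The number of 30 min-high peaks, 1500 in the rule, was 441 with all counted reads as the library size and 283 with a margin of 10%. It lay between 1150 and 1589 with TMM, DESeq2 or loess scaling, another count minimum, all chromosomes or background subtraction, though with loess scaling 837 of its 1150 peaks were among the 1500 (55.8% of these), and between 1565 and 2226 when 1 library was left out, which leaves fewer values to clear. Averaging control replicates 1 and 2 gave 1820. Loess scaling of the rule, background subtraction and that averaging were chosen after seeing the data. The number called higher at 30 min than in control (52) was 23 with all counted reads and 11 with DESeq2. In this contrast DESeq2 gave no adjusted p at several named peaks, among them Peak_5727, Peak_12742 and Peak_4626, which edgeR called. Such peaks could not be called with DESeq2, though the log2 differences of these named ones were close to those from edgeR. How much of the drop came from peaks without an adjusted p was not tested. The number was 582 with only the compared conditions, and from 8 (without control replicate 2) to 396 (without 3.5 h replicate 1) with 1 library left out. The number called higher at 30 min than at 3.5 h (1326) was 793 with all counted reads and from 1087 to 1350 with 1 library left out. The number called lower at 3.5 h than in control (667) was from 418 to 915 with 1 library left out, and the number called higher (11) was 6 with DESeq2 and from 5 to 12, the lowest being without control replicate 2. With all counted reads the log2 differences of all peaks moved, in the median, by -0.09 for 30 min against control, by -0.16 for 30 min against 3.5 h and by 0.07 for 3.5 h against control. On that scale the 30 min minus control log2 differences of 6 named peaks, all smaller than that move, changed sign as its construction requires: Peak_929 to -0.075, Peak_10709 to -0.035, Peak_13548 to -0.056, Peak_15773 to -0.072, Peak_3152 to -0.051 and Peak_6122 to -0.072. The median level of the 30 min-high peaks was below that of the peaks that could enter by -1.02 on the log2 scale, and by -0.19 under 700 bp, -0.42 from 2500 to below 4000 bp and -0.36 at 4000 bp or more. No 30 min-high peak was called in input at 30 min against control in any of the settings run, but the input test could call little. Of the other values of named peaks at 3.5 h against control, 523 kept their call or lack of a call, 43 (at 10 peaks) lost and 10 (at 9 peaks) gained a call. A value without a call could change sign, as did Peak_929 from -0.053 to 0.015 with all counted reads.

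With the replicate number as a block, 104 peaks were called higher at 30 min than in control, 1319 higher at 30 min than at 3.5 h, and 731 lower and 10 higher at 3.5 h than in control. Libraries with the same number did not regularly deviate together. Their correlations ran from -0.199 to 0.385 and were over 0.1 in 4 of 9 pairs, and 3 libraries correlated best with their own number. With 3 libraries per condition these values cannot settle whether the numbers pair the samples. Alternatives that need gene positions or sequence of this genome build (distance to start sites, motifs, GC content, gene lists) were not run.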
